A study of Mus musculus with 10 samples.

Results

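The genes described here are 10 mouse genes used as markers of newly forming oligodendrocytes, namely Gpr17, Enpp6, Bmp4, Itpr2, Tcf7l2, Bcas1, Tmem163, Rras2, Kif19a and 9630013A20Rik. They were chosen by name, with earlier results of these data known. Each was found by its Entrez Gene identifier among the 26301 genes counted. All 10 passed the filter on low counts, as did 15540 genes in all. The RNA came from spinal cord of mice of the C57BL/6 inbred strain, with no treatment or engineered allele given in the labels. The groups were 3 male and 3 female libraries at 8 weeks of age and 2 of each sex at 4 weeks, which makes 10. Whether each replicate was a separate animal is not said in the labels, and the p-values rest on the spread among these libraries, part of which may be technical. Library totals were 8453559 to 11594610 counts, and male 4-week library 1 stood farthest out on the first principal component, which held 34.7% of the variance. RNA of muscle, connective tissue, fat and blood cells was higher in the 4-week libraries, and values with that in view, and without the libraries that stood apart, are given at the end.

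Oligodendrocytes, which wrap axons of the central nervous system in myelin, arise from dividing precursors and pass through a short premyelinating state before they mature. In rodents most spinal myelin is laid down in the first weeks after birth, while some precursors go on differentiating in adults. Genes such as Gpr17 and Enpp6 are high in the passing state and lower in both the precursor and the mature cell, which is why they serve as markers of ongoing formation. Some genes of the group are used elsewhere too: Bcas1 stays on in myelinating cells, Itpr2 is the calcium channel of astrocyte stores, Kif19a belongs to motile cilia, and Tcf7l2 is made in some neurons and astrocytes. Counts of whole tissue do not show which cells held an RNA, and fewer cells of a type cannot be told apart from less RNA per cell.

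Of the 10 genes 7 were lower at 8 weeks than at 4 weeks over both sexes, 1 was higher and 2 did not pass the test. The threshold was an adjusted p under 0.05 in edgeR's quasi-likelihood test, which called 6.62% of all tested genes, 5.01% as lower and 1.61% as higher. The 7 were Gpr17, Enpp6, Bmp4, Tmem163, Rras2, Kif19a and 9630013A20Rik, and the 1 higher gene was Bcas1. Their log2 fold changes, 8 weeks over 4 weeks, ran down to -1.39 for 9630013A20Rik and up to 0.21 for Bcas1. The median over the 10 genes was -0.63, against 0.01 over all tested genes. In 6 of the 10 (Gpr17, Bmp4, Tcf7l2, Rras2, Kif19a and 9630013A20Rik) every 8-week library lay below every 4-week library, an order seen in 4.84% of all tested genes. Bcas1 had every 8-week library above every 4-week library, as did 2.89% of all tested genes.

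Upstream sequence of 4 members is shown, since the lineage factor Sox10 and the member Tcf7l2 both bind short DNA motifs. These are the 3 members that held a searched motif, and Rras2, which held none. Bmp4, Itpr2 and Tmem163 also held none and are not shown. Tcf7l2 was not among the 7 lower members, and control of any member by these factors was not tested. Each is the 250 bases before a start site of the RefSeq annotation on GRCm38.p6, printed 5′ to 3′ on the gene's own strand. Capitals mark ACAATG, a core that SOX proteins recognise, on either strand (CATTGT on the other). The stretches are chr14:84476425-84476674 (minus strand) for 9630013A20Rik, chr8:46986637-46986886 (plus strand) for Enpp6, chr19:55741560-55741809 (plus strand) for the upstream Tcf7l2 start and chr7:114117782-114118031 (minus strand) for Rras2.
9630013A20Rik: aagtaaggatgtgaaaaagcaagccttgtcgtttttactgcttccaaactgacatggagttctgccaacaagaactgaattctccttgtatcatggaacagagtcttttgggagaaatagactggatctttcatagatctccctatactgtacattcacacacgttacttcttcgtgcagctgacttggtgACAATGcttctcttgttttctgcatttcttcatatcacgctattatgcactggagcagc
Enpp6: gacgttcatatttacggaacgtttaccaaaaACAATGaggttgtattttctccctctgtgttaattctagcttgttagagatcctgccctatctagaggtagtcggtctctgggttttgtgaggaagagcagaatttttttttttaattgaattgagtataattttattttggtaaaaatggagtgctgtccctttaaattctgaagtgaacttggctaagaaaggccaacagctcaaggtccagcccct
Tcf7l2: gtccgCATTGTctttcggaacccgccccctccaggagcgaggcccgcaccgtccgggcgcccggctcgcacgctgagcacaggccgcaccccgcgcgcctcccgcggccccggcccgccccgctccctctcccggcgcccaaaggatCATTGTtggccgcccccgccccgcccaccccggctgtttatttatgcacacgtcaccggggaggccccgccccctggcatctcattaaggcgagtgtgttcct
Rras2: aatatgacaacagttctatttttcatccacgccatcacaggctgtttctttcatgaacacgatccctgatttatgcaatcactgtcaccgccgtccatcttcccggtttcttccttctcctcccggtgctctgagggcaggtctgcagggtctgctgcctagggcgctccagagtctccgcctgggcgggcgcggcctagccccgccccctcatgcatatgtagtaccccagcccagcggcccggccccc
ACAATG was searched on both strands. So was its variant ACAAAG, and so was TCAAAG, a core recognised by TCF and LEF proteins. No match overlapped another. Upstream windows were searched for 7 of the 10 members (Enpp6, Bmp4, Itpr2, Tcf7l2, Tmem163, Rras2 and 9630013A20Rik), and 3 of those held a motif. No window of Gpr17, Bcas1 or Kif19a was searched, so whether they hold a motif is unknown here. Enpp6 had ACAATG 219 bases before its start and 9630013A20Rik had it 59 bases before. The upstream Tcf7l2 start had it at 245 and 103 bases, and another Tcf7l2 start had ACAAAG at 14 bases. Rras2, whose RNA fell with age as that of Enpp6 did, held none of the 3. Among 32851 windows of the same 250 bases, 10.7% held ACAATG, while 16.5% held its variant, 13.8% held the core of TCF and LEF proteins, and 35% held any of them. A match describes the letters only, and binding was not measured. The 9630013A20Rik and Enpp6 windows held 4 CpG dinucleotides each, a number that 44.4% of all windows did not exceed. The Rras2 window held 14 and that of the upstream Tcf7l2 start 30, numbers that 72.7% and 94.8% of windows did not exceed.

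Gpr17, a G protein-coupled receptor that is switched on in committed precursors and must fall for them to mature, was the receptor of the group. It had 90.7, 91.2 and 95.2 CPM in male and 90.4, 96.1 and 112 CPM in female 8-week libraries, against 138 and 172 CPM in male and 171 and 183 CPM in female 4-week libraries. CPM stands for read counts scaled to a common library total with TMM factors, and all levels are on that scale unless said otherwise. The ages did not overlap, with female 8-week 3 the highest at 8 weeks and male 4-week 1 the lowest at 4 weeks. The mean was 95.9 ± 8.1 CPM at 8 weeks (SD, n = 6) and 166 ± 19 CPM at 4 weeks (SD, n = 4), 1.73-fold lower at 8 weeks (log2 fold change -0.79, SE 0.07, edgeR adjusted p = 1.4e-05). Beside it 9 other receptor genes were listed, among them the cysteinyl leukotriene receptor Cysltr1, P2Y receptors and Gpr37, and 8 were tested. None of the 8 passed in either direction in edgeR, with 0 at an unadjusted p under 0.05 and 0 in DESeq2 or limma-voom. Those with the lowest p were P2ry2, at 1.24 ± 0.46 CPM at 8 weeks and 1.86 ± 0.74 CPM at 4 weeks, and P2ry14, at 2.07 ± 0.54 CPM at 8 weeks and 2.78 ± 0.76 CPM at 4 weeks (SD, n = 6 at 8 weeks and 4 at 4 weeks). Exons of Gpr17 share 188 bases, 3.62% of its length, with Lims2 on the opposite strand in the GENCODE M21 annotation. How strand was treated in the counting is unknown here, so reads in that stretch could belong to either gene. Lims2 itself held 20.3 ± 1.4 CPM at 8 weeks and 26.7 ± 2.2 CPM at 4 weeks.

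Bmp4, a secreted ligand that holds back oligodendrocyte maturation when it is supplied to precursors, was the secreted member and among the least abundant. Male 8-week libraries had 4.68, 5.51 and 4.11 CPM and female 8-week libraries 5.27, 4.39 and 4.47 CPM, against 8.88 and 5.84 CPM in male and 9.37 and 6.00 CPM in female 4-week libraries. All 8-week libraries lay below all 4-week libraries, but library 2 of each sex at 4 weeks was close to the 8-week values. A library held 42 to 78 Bmp4 reads, and 3.96% of its exon length is shared with the opposite-strand gene Gm15217. Bmp4 was 1.57-fold lower at 8 weeks (log2 fold change -0.65, SE 0.17, edgeR adjusted p = 0.0310), and this call was lost when any 1 of 7 libraries was left out (library 1 of either sex at 4 weeks, male 8-week 1 or 3, or any female 8-week library), with adjusted p of 0.0520 to 0.123. The other genes of the pathway were 25 ligands, receptors, SMAD proteins, Id targets and extracellular antagonists. None of the 25 passed in edgeR, with 2 at an unadjusted p under 0.05 and 0 in DESeq2 or limma-voom, and their median log2 fold change was 0.03. The lowest p belonged to the inhibitory SMAD Smad7, at 51.5 ± 2.7 CPM at 8 weeks and 58.0 ± 3.2 CPM at 4 weeks, and to the ligand Bmp2, at 4.79 ± 0.42 CPM at 8 weeks and 5.76 ± 0.28 CPM at 4 weeks (SD, n = 6 at 8 weeks and 4 at 4 weeks).

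9630013A20Rik, a long noncoding RNA that RefSeq also lists as lncOL1, showed the largest age difference of the 10. Its levels were 9.99, 9.93 and 10.4 CPM in male and 9.40, 10.4 and 8.94 CPM in female 8-week libraries, against 21.7 and 32.6 CPM in male and 25.1 and 23.2 CPM in female 4-week libraries. The 6 libraries at 8 weeks were nearly level, while at 4 weeks the 2 male libraries were the lowest and the highest. The mean was 9.83 ± 0.56 CPM at 8 weeks and 25.6 ± 4.8 CPM at 4 weeks (SD, n = 6 at 8 weeks and 4 at 4 weeks), so the 8-week level was 38.3% of the 4-week level. The log2 fold change was -1.39 (SE 0.11, edgeR adjusted p = 4.3e-06).

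Tcf7l2, a transcription factor of the Wnt pathway that is found in premyelinating oligodendrocytes, did not pass the test. It had 5.93, 6.40 and 5.89 CPM in male and 7.02, 6.07 and 6.34 CPM in female 8-week libraries, against 7.84 and 7.58 CPM in male and 7.81 and 8.70 CPM in female 4-week libraries. The ages did not overlap, yet the log2 fold change of -0.35 (SE 0.11) had an edgeR adjusted p of 0.0708. A library held 57 to 87 of its reads. Of 19 tested genes of the Wnt pathway, with Lef1, Ctnnb1, Apc, Axin2 and the ring finger proteins Rnf43 and Znrf3 among those listed, 1 was lower, none was higher and the median was 0.06, with the same counts in DESeq2 and limma-voom. The lower gene was Wif1, a secreted Wnt inhibitor, at 0.69 ± 0.33 CPM at 8 weeks and 3.0 ± 2.0 CPM at 4 weeks (log2 fold change -2.10, SE 0.45, edgeR adjusted p = 0.0118), with an edgeR adjusted p of 0.0517 without male 4-week library 1 and 0.0633 without female 4-week library 2. Wif1 is also made in cartilage and other connective tissue, whose markers were higher at 4 weeks as given with the other tissues, and their part in the result was not tested.

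Itpr2, an inositol trisphosphate receptor that releases calcium from the endoplasmic reticulum, was the other member that did not pass. Its levels were 22.1, 20.8 and 23.0 CPM in male and 27.9, 26.9 and 24.3 CPM in female 8-week libraries, against 17.8 and 36.8 CPM in male and 23.2 and 33.1 CPM in female 4-week libraries. The 4-week libraries spanned the 8-week range on both sides, with library 1 low and library 2 high in each sex. The log2 fold change was -0.22 (SE 0.16, edgeR adjusted p = 0.478). Of 15 tested genes of stored calcium and its refilling, 3 were lower and 1 was higher. Atp2a1 (log2 fold change -3.36, SE 0.36) and Ryr1 (-1.27, SE 0.21), which are the calcium pump and release channel of skeletal muscle, were lower, as was the pump Atp2a3 (-0.66, SE 0.14), with edgeR adjusted p of 7.4e-05, 0.0023 and 0.0106. Summed muscle markers, at 218 to 350 CPM at 8 weeks and 630 to 1963 CPM at 4 weeks, moved the same way, and their part in these results was not tested. Itpr1, the neuronal relative of Itpr2, was higher at 82.3 ± 6.1 CPM at 8 weeks, against 62.9 ± 10.9 CPM at 4 weeks (log2 fold change 0.38, SE 0.10, edgeR adjusted p = 0.0308), a call lost when any 1 of 6 libraries was left out, with adjusted p up to 0.0811.

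Rras2, a small GTPase of the RAS family, was called in males and, less firmly, in females. It had 12.3, 10.04 and 10.3 CPM in male and 8.88, 12.2 and 9.57 CPM in female 8-week libraries, against 19.8 and 19.9 CPM in male and 17.1 and 15.8 CPM in female 4-week libraries. The ages did not overlap, and the male 4-week libraries were the highest of all. Rras2 was 1.72-fold lower at 8 weeks (log2 fold change -0.78, SE 0.10, edgeR adjusted p = 3.7e-04). Of 10 other genes of RAS-like GTPases and their regulators 2 were lower and none was higher, with a median of 0.01, while DESeq2 called 1 as higher and limma-voom none. The 2 lower genes were Nras, at 79.4 ± 4.4 CPM at 8 weeks and 108 ± 8 CPM at 4 weeks (log2 fold change -0.44, SE 0.06, edgeR adjusted p = 4.0e-04), and Rap1a, at 40.8 ± 3.0 CPM at 8 weeks and 51.9 ± 4.1 CPM at 4 weeks (log2 fold change -0.34, SE 0.07, edgeR adjusted p = 0.0106).

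Enpp6, a choline-specific phosphodiesterase on the surface of newly forming oligodendrocytes, had 52.8, 46.0 and 48.3 CPM in male and 58.8, 73.5 and 52.2 CPM in female 8-week libraries. The 4-week libraries had 71.0 and 104 CPM in males and 73.7 and 86.3 CPM in females. Female 8-week 2, at 73.5 CPM, was the only 8-week library within the 4-week range. Over both sexes Enpp6 was 1.53-fold lower at 8 weeks (log2 fold change -0.62, SE 0.13, edgeR adjusted p = 0.0083). Among 11 tested genes of its family and of choline handling 1 was lower and 1 was higher, with a median of -0.13. The choline transporter Slc44a1 was lower (log2 fold change -0.25, SE 0.06, edgeR adjusted p = 0.0258) and the family member Enpp5 higher (0.18, SE 0.05, edgeR adjusted p = 0.0366). The call of Slc44a1 was lost when any 1 of 6 libraries was left out (edgeR adjusted p up to 0.0734), and that of Enpp5 when any 1 of 8 was (up to 0.0805).

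Tmem163, a membrane protein that exports zinc, had 38.7, 44.0 and 35.9 CPM in male and 37.5, 37.7 and 30.6 CPM in female 8-week libraries. The 4-week libraries had 43.7 and 48.5 CPM in males and 51.1 and 50.7 CPM in females. Male 8-week 2, at 44.0 CPM, was just above male 4-week 1, and the other 8-week libraries lay below every 4-week library. Tmem163 was 1.30-fold lower at 8 weeks (log2 fold change -0.38, SE 0.09, edgeR adjusted p = 0.0184). This call was lost without female 4-week library 1 or 2, with adjusted p of 0.0597 and 0.0673. None of the 11 tested zinc transporters and metallothioneins passed in edgeR, with 1 at an unadjusted p under 0.05 and 0 in DESeq2 or limma-voom. The lowest p among them belonged to the zinc exporter Slc30a1, at 39.9 ± 1.7 CPM at 8 weeks and 44.4 ± 2.0 CPM at 4 weeks, and the vesicle transporter Slc30a3, at 45.0 ± 3.5 CPM at 8 weeks and 49.5 ± 4.0 CPM at 4 weeks (SD, n = 6 at 8 weeks and 4 at 4 weeks). Exons of Tmem163 share 3.54% of their length with the opposite-strand gene Mgat5, whose log2 fold change was 0.32 (SE 0.18) with an edgeR adjusted p of 0.351.

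Kif19a, a motor of the kinesin family that shortens microtubules in motile cilia and is also enriched in newly forming oligodendrocytes, had 21.1, 17.3 and 19.5 CPM in male and 20.4, 22.5 and 23.4 CPM in female 8-week libraries. The 4-week libraries had 37.0 and 39.4 CPM in males and 35.3 and 36.1 CPM in females. The highest 8-week library, at 23.4 CPM, was well below the lowest at 4 weeks, at 35.3 CPM. The difference was 1.79-fold (log2 fold change -0.84, SE 0.08, edgeR adjusted p = 3.1e-05). Ependymal markers, which stand for the ciliated cells of the central canal, were measured beside it. None of the 11 tested ependymal markers passed in edgeR, with 3 at an unadjusted p under 0.05 and 0 in DESeq2 or limma-voom, and their summed level was 73.2 to 90.8 CPM at 8 weeks and 74.8 to 82.6 CPM at 4 weeks. Their master regulator Foxj1 held 39.0 ± 2.4 CPM at 8 weeks and 43.5 ± 3.5 CPM at 4 weeks (SD, n = 6 at 8 weeks and 4 at 4 weeks).

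Bcas1, a cytoplasmic protein that marks early myelinating cells and remains in myelin, was the one member called higher at 8 weeks. It had 943, 953 and 932 CPM in male and 969, 1035 and 945 CPM in female 8-week libraries, against 829 and 816 CPM in male and 884 and 807 CPM in female 4-week libraries. All 6 libraries at 8 weeks were above all 4 at 4 weeks. Bcas1 was 1.15-fold higher at 8 weeks (log2 fold change 0.21, SE 0.05, edgeR adjusted p = 0.0162), and without female 4-week library 2 the adjusted p was 0.0509. In the GENCODE M21 annotation the antisense genes Bcas1os1 and Bcas1os2 cover 11.7% and 0.901% of its exon length on the other strand. As the treatment of strand in the counting is unknown, reads in those stretches could belong to Bcas1 or to the antisense genes. Bcas1 made up most of the reads of the 10 genes, and their summed level overlapped between the ages, at 1185 to 1325 CPM at 8 weeks and 1196 to 1298 CPM at 4 weeks.

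**Figure D1:**
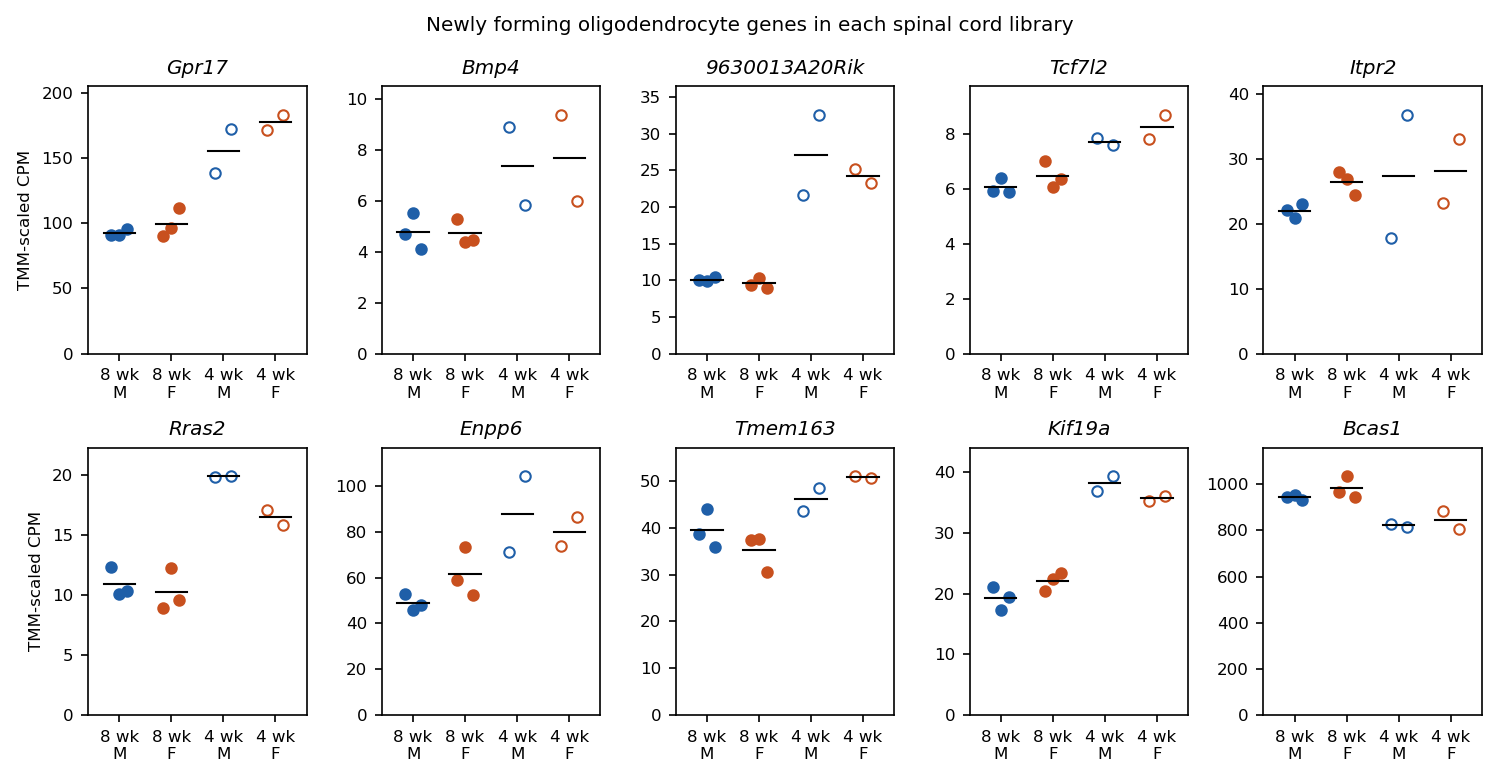
Level of each of the 10 genes (TMM-scaled CPM, linear axes from 0) in every library, with 8-week libraries as filled and 4-week libraries as open circles, males in blue and females in orange. Black bars are group means. Only the Bcas1 panel has all 8-week points above the 4-week points, at 932 to 1035 CPM at 8 weeks against 807 to 884 CPM at 4 weeks, and the Itpr2 panel shows the 4-week points on both sides of the 8-week points.

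Set per length, which allows genes to be compared, the order of levels at 8 weeks was Bcas1 (255 ± 10 CPM per kb of exons), Gpr17 (18.5 ± 1.6), Tmem163 (8.71 ± 1.01), Enpp6 (8.62 ± 1.55), Kif19a (5.09 ± 0.53), 9630013A20Rik (3.51 ± 0.20), Rras2 (2.97 ± 0.40), Bmp4 (2.11 ± 0.24), Itpr2 (1.63 ± 0.19) and Tcf7l2 (0.715 ± 0.048), each as mean and SD over 6 libraries. The mean ± SD ranges of Tmem163 and Enpp6 overlapped, as did those of 9630013A20Rik and Rras2, and no other neighbours in this order did. At 4 weeks Bcas1 (221 ± 9 CPM per kb) and Gpr17 (32.0 ± 3.7) again led, followed by Enpp6 (13.1 ± 2.4), Tmem163 (11.3 ± 0.8), 9630013A20Rik (9.15 ± 1.73) and Kif19a (9.09 ± 0.43), over 4 libraries. The ranges of Enpp6 and Tmem163 overlapped at 4 weeks, as did those of Tmem163 and 9630013A20Rik and of 9630013A20Rik and Kif19a. Rras2 followed at 5.10 ± 0.57 CPM per kb, then Bmp4 at 3.35 ± 0.83, Itpr2 at 1.87 ± 0.59 and Tcf7l2 at 0.910 ± 0.056. Lengths were the merged exons of GENCODE M21, which differ from the annotation the reads were counted on.

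**Figure D2:**
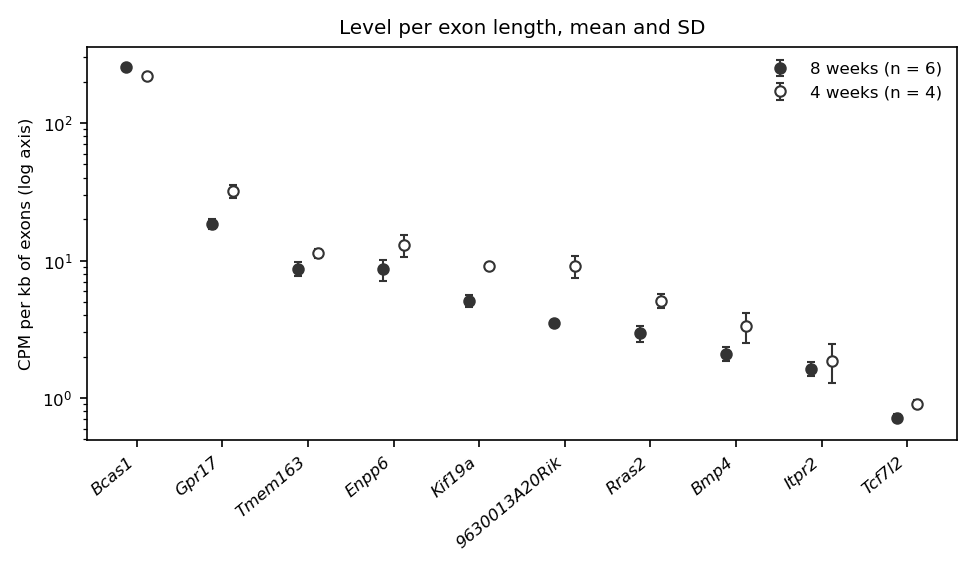
Mean level per kb of merged exons (CPM per kb, log axis) of each gene at 8 weeks (filled, n = 6) and 4 weeks (open, n = 4), with SD as bars, ordered by the 8-week level. Bcas1 stands apart, at 255 CPM per kb at 8 weeks and 221 at 4 weeks, and 9630013A20Rik shows the widest gap between the ages, at 3.51 CPM per kb at 8 weeks and 9.15 at 4 weeks.

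Within each sex the age difference was tested with all libraries lending to the estimate of spread. In males 5 of the 10 genes were lower at 8 weeks (Gpr17, Enpp6, Rras2, Kif19a and 9630013A20Rik) and none was higher, against 2.39% and 0.837% of all tested genes. In females 5 were lower (Gpr17, Tmem163, Rras2, Kif19a and 9630013A20Rik) and none was higher, against 1.22% and 0.238%. DESeq2 and limma-voom also called none as higher in either sex. The male log2 fold changes were -0.75 (SE 0.10, edgeR adjusted p = 0.0027) for Gpr17, -0.98 (SE 0.11) for Kif19a and -1.43 (SE 0.16) for 9630013A20Rik. The female values for these 3 genes were -0.84 (SE 0.10, edgeR adjusted p = 0.0019), -0.69 (SE 0.11) and -1.33 (SE 0.16). Enpp6 was -0.84 (SE 0.16, edgeR adjusted p = 0.0164) in males and -0.38 (SE 0.16, edgeR adjusted p = 0.364) in females. Tmem163 was -0.23 (SE 0.11, edgeR adjusted p = 0.355) in males and -0.53 (SE 0.11, edgeR adjusted p = 0.0453) in females. Rras2 was -0.87 (SE 0.14, edgeR adjusted p = 0.0077) in males and -0.68 (SE 0.15, edgeR adjusted p = 0.0467) in females. The female call of Rras2 was lost in limma-voom (adjusted p = 0.0502) and in edgeR with a replicate block (adjusted p = 0.111). Bcas1 was 0.20 (SE 0.06) in males and 0.22 (SE 0.06) in females, neither past the threshold, with edgeR adjusted p of 0.130 and 0.150.

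Those sex-specific calls do not show that the sexes differed. The test of the difference itself, the male age difference minus the female one, called none of the 10 genes in edgeR, none at an unadjusted p under 0.05 and none in DESeq2 or limma-voom. It called 0.0129% of all tested genes. The widest gaps were -0.46 (SE 0.23) for Enpp6, 0.30 (SE 0.16) for Tmem163 and -0.29 (SE 0.15) for Kif19a on the log2 scale, each with an edgeR adjusted p of 0.970. The comparison of males with females over both ages also called none of the 10 in edgeR, none at an unadjusted p under 0.05 and none in DESeq2 or limma-voom, against 0.0901% of all tested genes. Its log2 fold changes, male over female, ran between -0.17 for Itpr2 (SE 0.16) and 0.17 for Rras2 (SE 0.10).

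**Figure D3:**
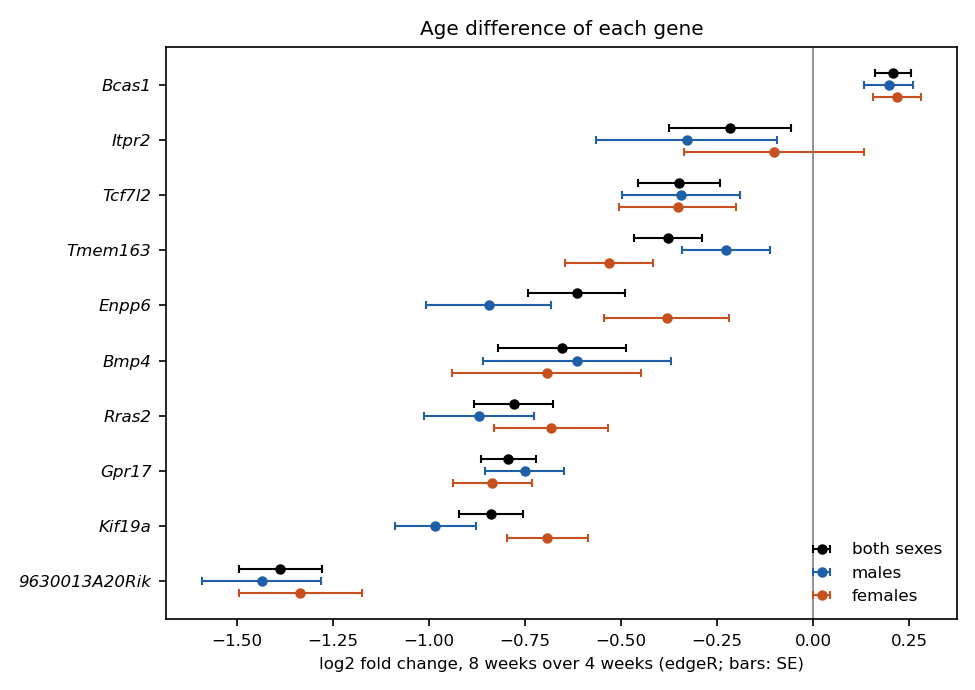
Log2 fold change of each gene, 8 weeks over 4 weeks, over both sexes (black), in males (blue) and in females (orange), with the SE from edgeR as bars. All genes but Bcas1 lie left of 0 in all 3 fits and Bcas1 lies right of it, between 0.20 and 0.22, while the male and female bars of Enpp6, Tmem163 and Kif19a lie apart.

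The balance between long and short transcripts differed between libraries. At 4 weeks Itpr2, Enpp6 and Gpr17 were lower in both libraries with a negative score, and Bmp4 and Bcas1 were higher in them. How many of all tested genes were ordered in this way was not counted. It was measured as the median centred log2 CPM of 2315 genes with at least 8000 bases of exons minus that of 1041 genes with at most 2000 bases. The score was -0.187, -0.0935 and 0.151 in male and 0.151, 0.0261 and 0.224 in female 8-week libraries, and -0.372 and 0.140 in male and -0.197 and 0.187 in female 4-week libraries. Itpr2, whose exons span 14802 bases, and Enpp6, with 6412, were lower in 4-week library 1 than in library 2 of each sex, where the score was lower too. Bmp4, with 2248 bases, was higher in library 1 of each sex. The 8-week libraries did not show this order for Enpp6, whose highest value, 73.5 CPM, was at a score of 0.0261, against 48.3 and 52.2 CPM at 0.151 and 0.224. Other members did not follow exon length at 4 weeks. In males Tcf7l2, with 8775 bases, was higher in library 1 than in library 2 (7.84 against 7.58 CPM). There 9630013A20Rik, with 2803 bases, was lower in library 1 (21.7 against 32.6 CPM). In females both genes had the opposite order. The part of exon length in these orders was not tested. With the score as a covariate, an alternative chosen after seeing the data, the log2 fold change was -0.31 for Itpr2 (SE 0.10, edgeR adjusted p = 0.0550), -0.66 for Enpp6 (SE 0.11, edgeR adjusted p = 7.8e-04) and -0.52 for Bmp4 (SE 0.14, edgeR adjusted p = 0.0223). The counts stayed at 7 lower and 1 higher. Without male 4-week library 1, Itpr2 passed the test in males, at -0.73 with an edgeR adjusted p of 0.0399, and without male 4-week library 2 it was 0.31 in males with an adjusted p of 0.335.

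**Figure D4:**
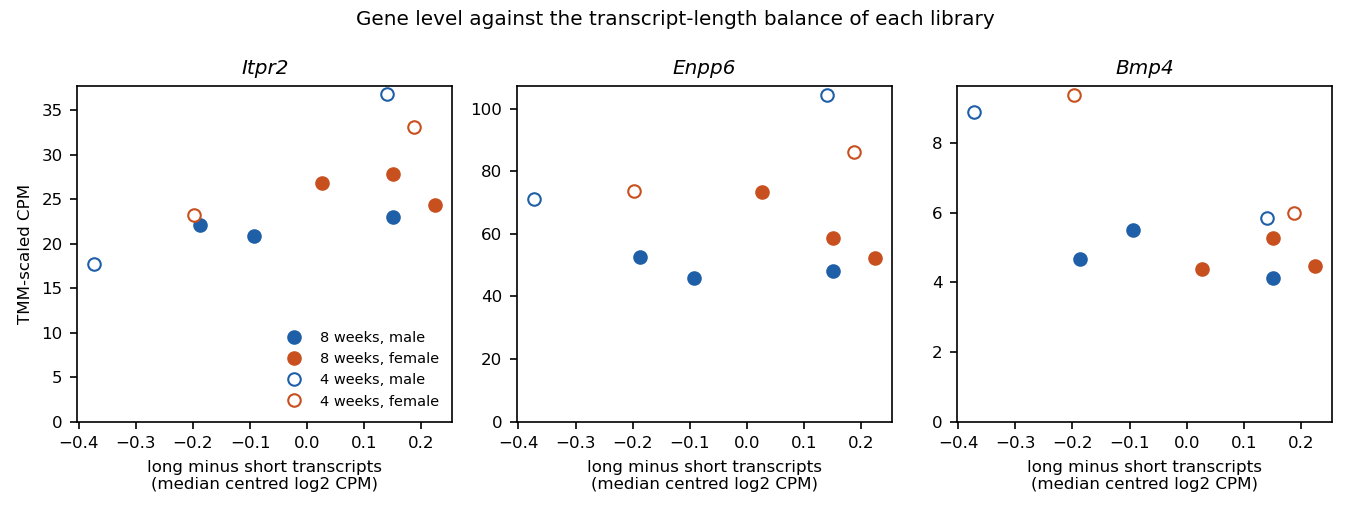
Level of Itpr2, Enpp6 and Bmp4 (TMM-scaled CPM, axes from 0) against the long-minus-short transcript score of each library (log2 scale), with 8-week libraries filled, 4-week libraries open, males blue and females orange. Among the 4-week points, the 2 with negative scores, at -0.372 and -0.197, are the lower ones for Itpr2 and Enpp6 and the higher ones for Bmp4, while the 8-week points of Enpp6 do not follow the score.

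The neighbouring states of the lineage were described with lists of other genes, also chosen with earlier results of these data known. Of 23 other genes of newly forming oligodendrocytes 14 were lower at 8 weeks and none was higher, with a median log2 fold change of -0.32. DESeq2 and limma-voom called 16 and 14 as lower and none as higher. Without both male 4-week libraries 9 of 22 tested were called lower, without male 8-week libraries 2 and 3 9 of 23, and with the muscle score described at the end as a covariate 1 of 23. The deacetylase Sirt2 had 322 ± 12 CPM at 8 weeks and 480 ± 18 CPM at 4 weeks (log2 fold change -0.57, SE 0.05, edgeR adjusted p = 7.3e-06). The Src-family kinase Fyn had 159 ± 4 CPM at 8 weeks and 204 ± 9 CPM at 4 weeks (log2 fold change -0.36, SE 0.05, edgeR adjusted p = 4.1e-04), and the ring finger gene Rnf122 and the membrane protein gene Prom1 fell by 0.96 and 0.85 on the log2 scale. Of 15 precursor genes 2 were lower and none was higher, with a median of -0.11, and DESeq2 and limma-voom each called 1 as lower and none as higher. The 2 were the sialidase Neu4, at 21.4 ± 1.4 CPM at 8 weeks and 27.8 ± 3.8 CPM at 4 weeks (edgeR adjusted p = 0.0133), and the matrix gene Emid1, at 5.28 ± 1.11 CPM at 8 weeks and 7.77 ± 1.86 CPM at 4 weeks (edgeR adjusted p = 0.0482), whose call was lost when any 1 of 8 libraries was left out, with adjusted p up to 0.188. Pdgfra, the growth factor receptor that defines precursors, had 62.7 ± 3.1 CPM at 8 weeks and 69.3 ± 8.0 CPM at 4 weeks (log2 fold change -0.14, SE 0.07, edgeR adjusted p = 0.280).

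Of 20 genes of mature oligodendrocytes and myelin 9 were lower and 3 were higher, with a median of -0.18. The myelin proteolipid Mal (log2 fold change -1.05, SE 0.05), the tight junction protein Cldn11 (-0.87, SE 0.06) and the myelin surface protein Mog (-0.75, SE 0.06) were lower, and the cytokine Il33 was higher (1.5, SE 0.09), each with an edgeR adjusted p of 5.7e-06 or less. Of 15 transcription factors of the lineage 3 were lower and none was higher, with a median of -0.10. Sox10, which is active throughout the lineage, had 179 ± 9 CPM at 8 weeks and 219 ± 20 CPM at 4 weeks (log2 fold change -0.29, SE 0.05, edgeR adjusted p = 0.0031). Olig1 was at -0.31 (SE 0.06) and Zfp488 at -0.69 (SE 0.15), with edgeR adjusted p of 0.0048 and 0.0128, that of Zfp488 0.0640 without female 4-week library 2. DESeq2 and limma-voom called 4 and 3 of these factors as lower and none as higher.

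**Figure D5:**
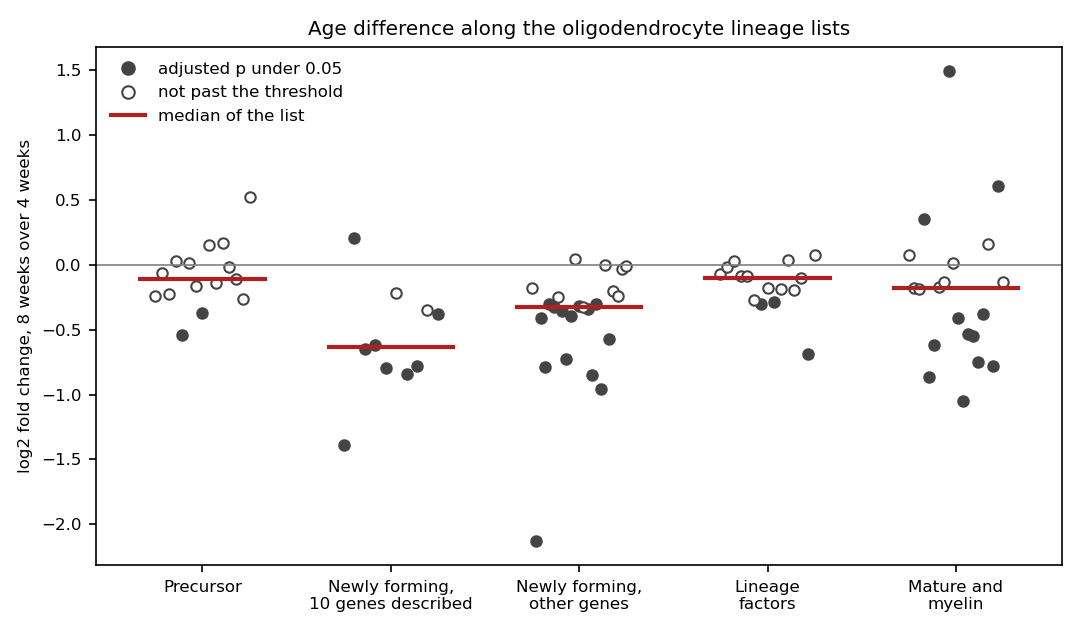
Log2 fold change of each gene, 8 weeks over 4 weeks, in the precursor list, the 10 genes described here, the other newly forming genes, the lineage factors and the mature list. Filled points had an edgeR adjusted p under 0.05 and red bars are list medians, at -0.11, -0.63, -0.32, -0.10 and -0.18 from left to right.

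The 10 genes were also set against Sox10 in the same library, as a description with no test. Every 8-week ratio lay below every 4-week ratio in 3 of them, namely Gpr17, Kif19a and 9630013A20Rik. The share of all tested genes with such an order of ratios was not computed, so this count cannot be set against a background. The mean log2 ratio at 8 weeks minus that at 4 weeks was -0.50 for Gpr17, -0.55 for Kif19a, -1.08 for 9630013A20Rik and, with the ages overlapping, -0.50 for Rras2, -0.31 for Enpp6 and -0.35 for Bmp4. For Tmem163 and Tcf7l2 it was -0.09 and -0.06, and for Itpr2 0.14. Bcas1 stood 0.50 higher relative to Sox10 at 8 weeks, with no overlap. Its own log2 fold change was 0.21 and that of Sox10 was -0.29, so part of the 0.50 is the fall of Sox10. A gene with no change of its own would also stand higher against Sox10.

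The members differed in how alike their profiles were. The measure was the root mean square distance between log2 CPM profiles centred on their own mean over the 10 libraries. A small value means a course alike in both direction and size. The profiles were not scaled, so genes that vary little lie close to each other. The 5 genes nearest to Gpr17 among all tested genes were Tspan2 (0.114), Elovl6 (0.123), Elovl1 (0.136), Parvb (0.137) and the member Kif19a (0.138). Enpp6 lay nearest to Sema4d (0.133), Hhip (0.143), Secisbp2l (0.152), Elf1 (0.156) and Plekhg1 (0.159), none of them a member. Bcas1 lay nearest to Pgrmc2 (0.0329), Ccdc136 (0.0347), Snap25 (0.0442), Map4 (0.0461) and Enpp5 (0.0473). Between members, Kif19a aside, the distance of Gpr17 was 0.240 to Rras2, 0.240 to Enpp6, 0.262 to Tcf7l2 and 0.2835 to Tmem163. It was 0.321 to Bmp4, 0.329 to 9630013A20Rik, 0.391 to Itpr2 and 0.508 to Bcas1. By nearness to Gpr17 among all tested genes these ranked, in that order, 129, 131, 206, 319, 691, 831, 3231 and 12064.

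Markers of other tissues moved with age in these libraries, beside all the differences above. Summed skeletal muscle markers, led by Pygm, were at 218 to 350 CPM at 8 weeks and 630 to 1963 CPM at 4 weeks, with 11 of 12 genes lower and Pygm itself not called. Fibroblast markers, led by Col1a2, were at 386 to 661 CPM at 8 weeks and 904 to 1754 CPM at 4 weeks with 7 of 9 lower, and cartilage and bone markers, led by Alpl, at 30.3 to 45.6 CPM at 8 weeks and 48.9 to 105 CPM at 4 weeks with 7 of 10 lower. Fat markers, led by Fabp4, were at 14.98 to 48.1 CPM at 8 weeks and 50.6 to 248 CPM at 4 weeks with 8 of 8 lower, neutrophil markers, led by S100a9, at 118 to 205 CPM at 8 weeks and 210 to 583 CPM at 4 weeks with 9 of 9 lower, and red cell markers, led by Hba-a1, at 230 to 280 CPM at 8 weeks and 315 to 582 CPM at 4 weeks with 4 of 6 lower. Adrenal markers, led by Star, were at 8.99 to 11.2 CPM at 8 weeks and 9.60 to 129 CPM at 4 weeks, the high values in the male 4-week libraries, with 6 of 6 lower. Lung markers, led by Sftpc, were at 1.77 to 856 CPM at 8 weeks and 3.0 to 9.46 CPM at 4 weeks with 1 of 7 higher, the high values in male 8-week libraries 2 and 3. Vascular markers, led by Rgs5, were at 89.0 to 155 CPM at 8 weeks and 96.4 to 136 CPM at 4 weeks with 1 of 8 lower. The cord's own astrocyte markers, led by Gfap (1 of 7 lower, 8106 to 9921 CPM at 8 weeks and 8048 to 9369 CPM at 4 weeks) and neuron markers, led by Snap25 (1 of 8 higher, 3962 to 4113 CPM at 8 weeks and 3435 to 3699 CPM at 4 weeks) were both present. No listed marker was at 0 in every library.

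A muscle score, taken as the mean over that list of centred log2 levels, ran between -2.07 and -0.51 at 8 weeks and between 1.08 and 2.94 at 4 weeks, so the ages did not overlap in it. With that score as a covariate 2 of the 7 lower genes passed, Gpr17 (log2 fold change -1.22, SE 0.14, edgeR adjusted p = 7.0e-04) and 9630013A20Rik (-1.85, SE 0.25, edgeR adjusted p = 0.0041). The other 5 did not pass: Kif19a was at -0.95 (SE 0.21, edgeR adjusted p = 0.0652), Enpp6 at -0.72 (SE 0.30), Rras2 at -0.53 (SE 0.25), Tmem163 at -0.25 (SE 0.22) and Bmp4 at 0.02 (SE 0.40). The median SE of the 10 genes was 0.249 with the covariate and 0.105 without it. Since the score did not overlap between the ages, age and the amount of muscle RNA cannot be told apart for any of the 10 genes, those that passed included. Without both male 4-week libraries the age difference rests on the female libraries alone, so that fit repeats the female comparison above. In it 5 genes were lower (Gpr17, Tmem163, Rras2, Kif19a and 9630013A20Rik), the same as in females, and Bcas1 was not called. The same 5 were lower, and Bcas1 was not called, without male 8-week libraries 2 and 3.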

How the data were processed

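Spinal cord RNA was sequenced in 10 libraries, and the authors deposited raw read counts of 26301 Entrez Gene identifiers for each, with no normalization. TopHat2 2.1.0, featureCounts and mm9 are listed in the submitters' processing notes, and how reads were assigned to genes or strands is not given in the sources used here. Names came from a RefSeq gene table of another build (24191 identifiers matched, 2110 did not), and exon lengths and overlapping neighbours from GENCODE M21. The coordinates given are those of the upstream sequences, from RefSeq on GRCm38.p6, and none are given on mm9. Library totals were 8453559 to 11594610 counts, so 1 CPM is near 10 reads.

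The deposited counts went into edgeR 4.0.16 (R 4.3.3) with TMM scaling, filterByExpr with minimum count 10 and minimum total 15, and its quasi-likelihood F test, two-sided and adjusted by Benjamini-Hochberg over 15540 genes at 0.05. The age and the sex difference came from an additive model of both, and age within a sex and the interaction from a model of 4 groups. The SE is the absolute log2 fold change over the square root of F. CPM are TMM-scaled. Alternatives were another scaling, other filters, DESeq2 1.42.0, limma-voom (limma 3.58.1), left-out libraries, a replicate block and a muscle or a transcript-length covariate. The scripts were tested on simulated data.

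The members and the gene lists were chosen with earlier results of these data known. Beside all members, the genes named were, from each lineage or pathway list, those called for age (at most 4, by lowest p; if none, the 2 with the lowest p), the 5 nearest to Gpr17, Enpp6 and Bcas1, and the most abundant gene of each marker list reported. Schwann cell and microglia marker lists are not reported here. Lims2, Mgat5 and Pdgfra were added after their values were seen.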

Additional observations from a re-analysis of the deposited data

Results flagged for a closer look

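Each of the 10 genes was checked at each age for a library standing apart, by setting the gap between the highest or lowest library and its neighbour against the whole range of the group. Of 20 such groups 2 passed the 95% critical value of Dixon's test, and chance flags about 1 in 20. Gpr17 in female 8-week library 3 was at 111.7 CPM, with the next 8-week library at 96.1 CPM, a gap of 0.73 of the range. Bcas1 in female 8-week library 2 was at 1035.1 CPM, with the next at 968.5 CPM, a gap of 0.647 of the range. Without female 8-week library 3, Gpr17 stayed lower at 8 weeks, and without female 8-week library 2, Bcas1 stayed higher, both with an edgeR adjusted p under 0.05.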

How the results depend on the processing

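Over both sexes 7 genes were lower and 1 higher under the other scaling, both other filters, DESeq2, limma-voom and the transcript-length covariate. Leaving out each library in turn gave 5 to 7 lower and 0 to 1 higher. Without both male 4-week libraries, or without male 8-week libraries 2 and 3, 5 were lower and 0 higher, and with the muscle covariate 2 were lower and 0 higher. Of the 23 other newly forming genes, 14 in the fit reported, 9, 9 and 1 were lower in these 3 fits, and of 15 precursor genes 0 in each; with the muscle covariate 2 mature genes were lower and 2 higher, and 0 lineage factors were called. Gpr17 and 9630013A20Rik were called under every alternative run, and Rras2 and Kif19a under all but the muscle covariate. In females the leave-one-out counts of lower genes ran from 2 to 5, with 3 without female 4-week 1 or female 8-week 3 and 2 without female 4-week 2 or female 8-week 1; in males they ran from 4 to 6. Signs turned in few cases, and the cause was not tested. With the muscle covariate Bmp4 was at 0.019, Itpr1 at -0.052 and P2ry2 at 0.29, the last not called in any fit. Itpr2, not called over both sexes, ran from -0.36 to 0.041 over left-out libraries, in males from -0.73 to 0.31 and in females from -0.32 to 0.19. The male call of Enpp6 was lost without male 4-week 2, male 8-week 2 or male 8-week 3, with edgeR adjusted p up to 0.0745. The female call of Tmem163 was lost without either female 4-week library, any female 8-week library or male 8-week 1, and that of Rras2 without either female 4-week library, female 8-week 1 or 3, or male 8-week 2 or 3, with edgeR adjusted p up to 0.213 and 0.261; that of Rras2 was also lost in limma-voom (0.0502) and with the replicate block (0.111). That of Kif19a was lost without female 4-week 2 or female 8-week 1, with adjusted p of 0.0677 and 0.0547. The replicate numbers do not pair the libraries by the labels, and of 13 same-numbered pairs 5 had a correlation of their deviations over 0.1 (range -0.213 to 0.236). With the replicate block 5 genes were lower and 1 higher, as Bmp4 and Tmem163 had edgeR adjusted p of 0.0630 and 0.0533. Over all tested genes the counts were 250 higher and 778 lower. They were 722 and 1079 with the transcript-length covariate, 12 and 32 with the muscle covariate, and 204 and 604 with the replicate block. Without both male 4-week libraries they were 71 and 322, and without male 8-week libraries 2 and 3 they were 74 and 400. The other scaling, both other filters, DESeq2 and limma-voom gave 245 to 348 higher and 728 to 868 lower. Leaving out each library in turn gave 143 to 550 higher and 576 to 923 lower over both sexes. In the same fits 55 to 322 were lower in females and 159 to 629 in males. Among the list genes named, Emid1, Enpp5, Slc44a1, Itpr1, Wif1, Atp2a3 and Zfp488 lost their call without at least 1 library. Bmp4 and Tcf7l2 had at most 78 and 87 reads in a library; the part of depth in their errors was not tested.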
